A study of Homo sapiens with 4 samples.

Results

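MicroRNA (miRNA) genes were examined for macroH2A1 across the autosomes of IMR90 cells, an established line of human fetal lung fibroblasts. The members are the autosomal genes of type miRNA in the GENCODE annotation on the human genome build hg19 (GRCh37), 2841 of the 61221 autosomal genes of all types. Each member was read in both deposited segmentations of the genome, and 2751 of them were held by a segmented stretch in both. Members were then grouped as inside the span of a protein-coding gene (1478 measured) or outside every such span (1273 measured), and neighbouring members within 10 kb of each other were chained into clusters. These rules use position and gene type only, and no ChIP value.

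The study precipitated formaldehyde-crosslinked chromatin from IMR90 cultures, for which the labels give no treatment, with an antibody against macroH2A1 and sequenced it. The labels name 4 samples of this line, which are ChIP replicates 1 and 2 and an input, chromatin taken before precipitation, for each. The design text calls the replicates biological. All samples share 1 genotype and 1 growth condition, so no group without macroH2A1, no treated group and no second cell type enters the values, and the inputs enter only through the ratio of ChIP over input that the authors deposited.

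MacroH2A1 replaces histone H2A in some nucleosomes and bears a bulky globular macro domain, and it is known for broad domains over silent chromatin such as the inactive X chromosome. A miRNA is cut from a hairpin in a longer transcript, first by Drosha and then by Dicer, and the mature strand guides Argonaute to messenger RNAs that pair with its seed. Many hairpins lie in introns of protein-coding genes and are made from the host's transcript, others are made from long non-coding RNA genes, and hairpins that sit close together are often cut from a shared transcript. The same mature miRNA can also be made from several loci, so its genes can lie in different chromatin.

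Mature sequences were taken from RefSeq (table of build GRCh38.p14), where 1088 of the 2841 members had an entry by symbol. They gave 1442 different mature sequences, 66 of which came from at least 2 measured loci. The sequences on which the results below turn are printed 5′ to 3′, with the seed, bases 2 to 8, in capitals. The first set shares the seed GAGGUAG of the let-7 family, none of whose loci was enriched.
let-7a-5p: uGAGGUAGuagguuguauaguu
let-7b-5p: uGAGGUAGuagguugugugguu
let-7c-5p: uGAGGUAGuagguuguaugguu
let-7d-5p: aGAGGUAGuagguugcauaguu
let-7e-5p: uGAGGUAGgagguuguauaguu
let-7f-5p: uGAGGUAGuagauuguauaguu
let-7g-5p: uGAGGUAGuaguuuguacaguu
let-7i-5p: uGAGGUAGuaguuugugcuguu
miR-4500: uGAGGUAGuaguuucuu

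The second set holds the mature sequences that are made from several loci of which some were enriched and others were not, in each replicate.
miR-7-5p: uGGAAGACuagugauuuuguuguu
miR-1285-3p: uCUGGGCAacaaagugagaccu
miR-199a-3p and miR-199b-3p: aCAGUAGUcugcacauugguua
miR-199a-5p: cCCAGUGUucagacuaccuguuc
miR-548g-5p and miR-548x-5p: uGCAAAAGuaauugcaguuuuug
miR-548x-3p: uAAAAACUgcaauuacuuuc
miR-218-5p: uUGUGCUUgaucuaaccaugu

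The third set holds mature miRNAs whose measured loci were all enriched, the miR-196 miRNAs of the HOX clusters (seed AGGUAGU) and miR-9, together with enriched epithelial miRNAs.
miR-196a-5p: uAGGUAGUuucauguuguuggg
miR-196b-5p: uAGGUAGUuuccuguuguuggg
miR-9-5p: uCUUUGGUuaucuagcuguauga
miR-9-3p: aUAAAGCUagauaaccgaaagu
miR-200a-3p: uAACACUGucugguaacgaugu
miR-429: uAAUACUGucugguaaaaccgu
miR-182-5p: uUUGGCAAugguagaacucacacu
miR-96-5p: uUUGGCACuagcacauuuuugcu
miR-183-5p: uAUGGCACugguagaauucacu
miR-375-3p: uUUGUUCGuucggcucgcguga

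Each value below is the log2 ratio of ChIP over input of the block, a stretch of the genome given 1 value by the authors' segmentation, that holds the miRNA gene. It is 0 where ChIP and input are equal. The files hold no read counts, so the depth behind a value is unknown and no counting interval can be given. A gene was called enriched where the ratio was above 0 and the deposited −log10 p was at least 2 in both replicates, and low where the ratio was below −1 in both. Blocks are long against a hairpin: the median block holding a member spanned 68.9 kb (replicate 1) or 85.0 kb (replicate 2). Neighbouring genes therefore often share a single value, and the 2751 measured genes rest on 2453 different pairs of blocks. The segmentation also joins some blocks into a longer segment whose value they all carry. Separate values are therefore fewer than pairs of blocks. Both ChIP libraries form 1 group, so no test across samples can be made, and the results are given per replicate beside the same readout of the rest of the genome.

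MacroH2A1 was called enriched at 666 of the 2751 measured miRNA genes, which is 24.2%, with 28.5% in replicate 1 alone and 30.6% in replicate 2 alone. The assayed autosomal genome, read at the centre of every 1-kb bin, was enriched in 27.6% of bins. The share of all miRNA genes together was close to that of the genome and no higher. Genes with a MIR symbol lay below it at 17.0%, and the 1559 models with another name, mostly a clone name, were enriched in 29.8%. Among protein-coding gene starts the share was 19.5%, among snoRNA genes 24.5% and among snRNA genes 31.0%. Low values were more frequent: 705 miRNA genes, 25.6%, were low in both replicates, against 16.7% of bins. Among models with another name 16.6% were low. The median log2 ratio of the miRNA genes was −0.51 in replicate 1 and −0.47 in replicate 2.

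The replicates ranked the miRNA genes alike. Over the 2751 genes Pearson's r between replicates was 0.893 and Spearman's rho 0.893, a description across genes that share blocks and the same antibody and annotation. The median absolute difference between replicates was 0.24 on the log2 scale, and 301 genes (10.9%) had ratios of opposite sign. Beside the 666 genes called in both replicates, 119 were called in replicate 1 only and 175 in replicate 2 only. The mean of both replicates ran from −3.64 to 2.40.

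**Figure D1:**
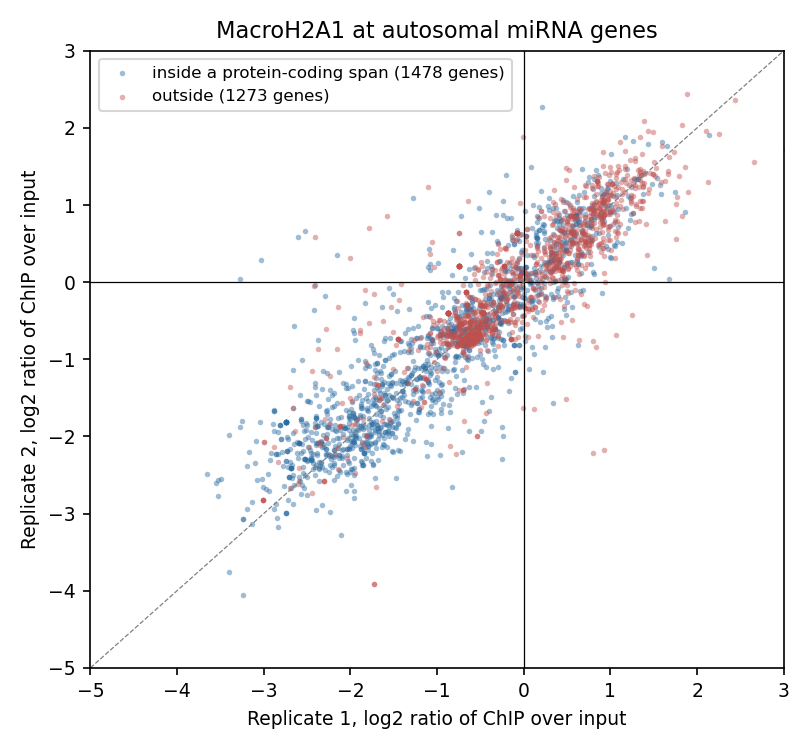
Log2 ratio of ChIP over input of each measured autosomal miRNA gene in replicate 1 (x axis) and replicate 2 (y axis), with the 1478 genes inside protein-coding spans in blue and the 1273 outside in red; the dashed line marks equal values. The low end is mostly blue, with 620 inside genes and 85 outside genes below −1 in both replicates.

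No expression was measured, so the identity of the cells rests on the label. At the starts of the fibroblast genes COL3A1, FN1, VIM and COL1A1 the log2 ratio was below 0 in both replicates and none was enriched (COL1A2 was held by a block in replicate 1 only). CDH1 and EPCAM, which mark epithelial cells, were enriched at their starts, with CDH1 at 0.65 and 0.86 in replicates 1 and 2. These are chromatin values and say nothing of transcript levels.

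Position against protein-coding genes split the miRNA genes. Of the genes outside coding spans 434 of 1273 (34.1%) were enriched, against 232 of 1478 inside (15.7%). For genes with a MIR symbol the shares were 22.8% and 13.6%, so the gap fell from 18.4 to 9.22 percentage points without the clone-named models. The median log2 ratio outside was −0.18 in replicate 1 and −0.10 in replicate 2, and inside it was −0.88 and −0.81. The difference, outside minus inside, was 0.70 and 0.71, so its mean of 0.70 ± 0.01 (SD, n = 2 replicates) was far larger than the spread between replicates. The quartiles of the mean ratio nevertheless overlapped, running from −1.83 to −0.06 inside and from −0.64 to 0.60 outside.

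The rest of the genome showed the same split. Bins inside coding spans were enriched in 17.3% and bins outside in 36.7%, against 15.7% and 34.1% of the miRNA genes. Outside, the direction of that small gap turned with the counting: in replicate 2 alone 41.9% of miRNA genes and 40.4% of bins were called, and by pairs of blocks the miRNA share was 37.4%. The replicate 2 share includes 41 neighbouring genes of the 14q32 region, described below, that replicate 1 did not call. Low values were where the miRNA genes stood above the bins: 41.9% inside against 32.9% of bins, and 6.68% outside against 2.56% of bins. That excess lay in genes with a MIR symbol. Inside, 49.6% of those numbered under 1000 or named let-7 and 49.8% of higher numbers were low, against 33.75% of models with another name. Outside, these shares were 14.5%, 17.2% and 1.91%. In the cumulative curves the miRNA genes inside coding spans lie to the left of the bins over the low range, and the outside curves separate chiefly at the low end.

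**Figure D2:**
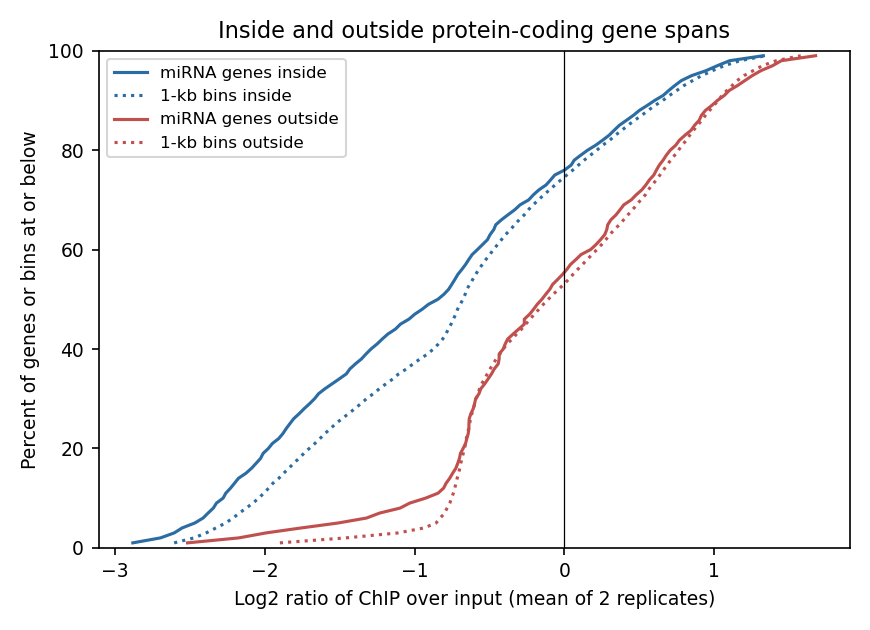
Cumulative distributions of the log2 ratio of ChIP over input (x axis, mean of both replicates) for miRNA genes (solid) and 1-kb bins (dotted), inside (blue) and outside (red) protein-coding spans; the y axis is the percent at or below each ratio. Median ratios of the miRNA genes are −0.84 inside and −0.15 outside.

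Within protein-coding spans, the place of the hairpin in its host went with the value. Introns held 1230 of the inside genes and 17.4% of them were enriched, against 7.45% of the 94 that overlapped a coding exon and 7.14% of the 154 in a non-coding exon. By single replicates the shares were 21.4% and 22.4% for introns, 10.6% and 12.8% for coding exons, and 7.79% and 12.3% for non-coding exons. The medians of the last 2 groups were −1.77 in replicate 1, and −1.45 and −1.76 in replicate 2. Genes on the strand of the host, which can be made from its transcript, were enriched in 143 of 1010 cases (14.2%), and genes on the opposite strand in 89 of 468. Host length went with the share of low genes rather than with the enriched share: 57.4% of genes in hosts under 50 kb were low, 46.3% in hosts of 50 to 200 kb and 25.1% in hosts over 200 kb, while 14.3%, 16.0% and 16.4% were enriched. GC content moved with these groups, with a median in the surrounding 1 kb of 53.2% for hosts under 50 kb and 41.4% for hosts over 200 kb, and its part in the difference was not tested.

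A miRNA gene on its host's strand usually shared the state of the host's start. Of 918 same-strand miRNA genes with a measured host start (829 hosts), 94 were enriched together with the start, 711 were not enriched and neither was the start, 38 were enriched without the start and 75 had only the start enriched. The start was enriched for 71.2% of the 132 enriched miRNA genes and for 9.54% of the 786 others. For 323 of the 918 the gene and the start lay in the same block in both replicates, so these agree by construction. Pairs that lay in different blocks of the same segment also share its value, and their number was not counted.

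Genes whose ratio differed from that of the host's start, whether or not the call did, include well-studied miRNAs. MIR126, an endothelial miRNA at chr9:139565054-139565138 (+ strand) in an intron of EGFL7, had −1.47 and −2.53 in replicates 1 and 2, while the start of EGFL7 had 0.55 and 0.66. MIR153-1, a neuronal miRNA in an intron of PTPRN at chr2:220158833-220158922 (− strand), had −0.36 and 0.16 against 1.21 and 1.09 at the start. At MIR21, a miRNA abundant in fibroblasts and many tumours, in a non-coding exon of VMP1 at chr17:57918627-57918698 (+ strand), both were depleted, with −0.80 and −1.38 at the hairpin and −3.02 and −2.08 at the start. In each of these 3 genes the replicates were on the same side of the difference.

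Outside protein-coding spans, 363 miRNA genes lay in the span of a long non-coding RNA gene on the same strand, and 80 of them (22.04%) were enriched. Of the 910 with no such span 354, or 38.9%, were enriched. Called by single replicates, the shares were 27.3% against 44.1% in replicate 1 and 36.1% against 44.3% in replicate 2. Counted by pairs of blocks the shares were 29.8% and 39.6%, a narrower gap than by genes. The 363 include many genes of the 14q32 and 19q13 regions, described below, which lie in 7 and 2 pairs of blocks.

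Clusters of miRNA genes were mostly in a single state. There were 101 clusters with 352 genes, of which 66 held 2 genes, 35 held 3 or more and 3 held 10 or more. In 90 clusters at least 2 genes were measured: 18 had every measured gene enriched, 70 had none and 2 were mixed. Since 79 of the 90 lay in a single pair of blocks, their genes have the same value by construction. Not all of the other 11 could be mixed, because blocks of the same segment share its value. MIR214 and MIR199A2, for example, lie in 2 pairs of blocks and have the same ratios. Clustered genes were enriched in 13.4% of 329 and single genes in 25.7% of 2422. That difference of 12.3 percentage points came to 16.5 when replicate 1 was read by itself and to 2.96 for replicate 2, and to 4.63 with each pair of blocks counted once, so its size depends on the replicate and on how genes that share a block are counted. Of the 92 clustered genes called in replicate 2, 41 were 14q32 genes that replicate 1 did not call. The 329 also include 46 genes of a 19q13 cluster in 2 pairs of blocks, none of them enriched. At the 10-kb limit, the widest gap inside a cluster was 9415 bases and the narrowest gap outside was 10014 bases, and the genes on either side of both gaps were enriched.

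Of the 18 clusters with every measured gene enriched, 8 held a gene with a MIR symbol. The highest of these was that of MIR297 with a clone-named model, at chr4:111774532-111781803, with 1.36 and 1.39 in replicates 1 and 2. The pair MIR4450 and MIR548AH in SHROOM3, at chr4:77494721-77496779, had 1.32 and 1.34. MIR217 and MIR216A, known from pancreas, lie at chr2:56210102-56216194 in the non-coding gene MIR217HG and had 0.88 and 0.86. The cluster of MIR200B, MIR200A and MIR429 at chr1:1102484-1104467 had 0.75 and 0.48, and that of MIR182, MIR96 and MIR183 at chr7:129410223-129414854 had 0.55 and 0.64. MIR214 and MIR199A2 in DNM3OS, antisense to DNM3, had 0.35 and 0.29. The pair MIR3671 and MIR101-1 in JAK1 was only slightly above 0, at 0.13 in both replicates, so its call rests on a small ratio.

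Among clusters with 3 or more measured genes, the 2 lowest carried let-7 genes, and the next 3 held none. MIRLET7A3, MIR4763 and MIRLET7B, at chr22:46508629-46509648 in MIRLET7BHG, had −3.01 in replicate 1 and −2.83 in replicate 2. MIR99B, MIRLET7E and MIR125A in SPACA6, at chr19:52195865-52196592, had −2.74 and −3.00. The MIR941 cluster in DNAJC5 had −2.69 and −2.41, the 5-gene cluster with MIR4737 in HEATR6 −2.59 and −2.08, and MIR23B, MIR27B and MIR3074 in AOPEP −2.82 and −1.85. On the high side of the same ranking 2 of the 5 clusters held a MIR symbol, that of MIR182 and that of MIR657, MIR338 and MIR1250 in AATK (0.15 and 0.58, not called in both replicates). The MIR200B cluster, with 2 of its 3 genes measured, is not in this ranking.

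The largest clusters were not enriched in both replicates. The primate-specific cluster on 19q13, from MIR512-1 to MIR516A2 at chr19:54169927-54264476, is known from placenta and held 46 genes in 2 pairs of blocks. All 46 had the same value in replicate 2, −0.40, and −0.88 or −0.47 in replicate 1. The 14q32 miRNA genes, from MIR493 to MIR656 at chr14:101335397-101533138, lie in the imprinted DLK1-DIO3 region. They are 51 measured genes in 7 pairs of blocks over 198 kb, and the 10-kb rule splits them into 3 clusters of 8, 2 and 41 genes. None of the 51 was called in replicate 1, where the ratios ran from −0.74 to −0.08. In replicate 2, 41 of them, from MIR379 to MIR656, were called, with 0.21 or 0.64, and the other 10 had −0.29. The 14q32 genes were thus the largest single source of calls made in replicate 2 only, 41 of 175.

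**Figure D3:**
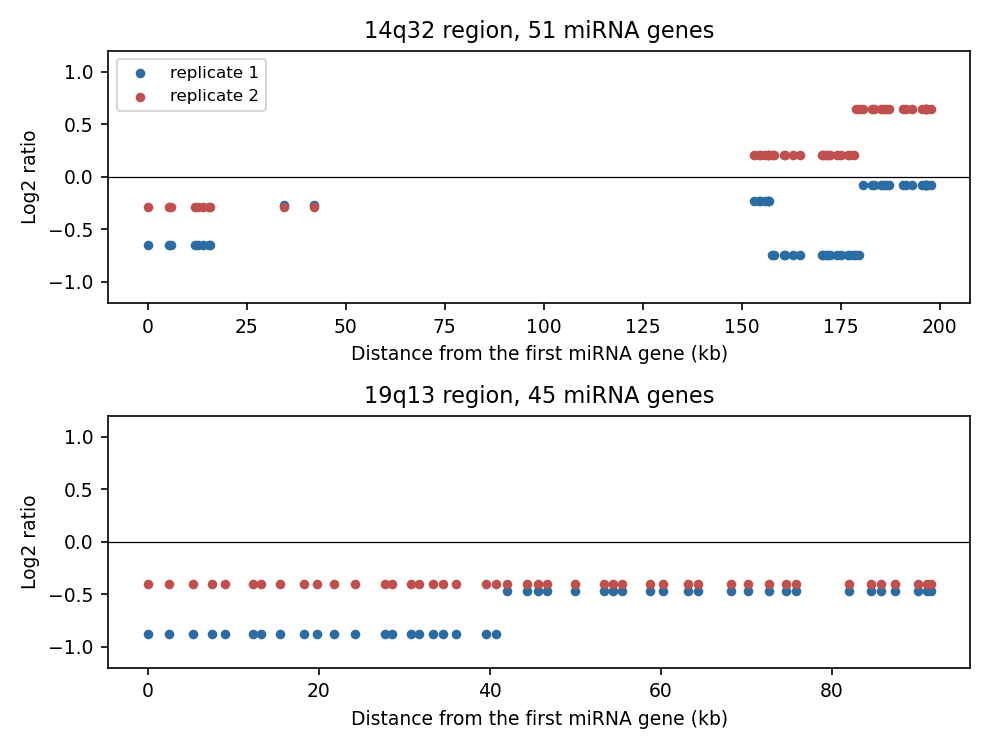
Log2 ratio of ChIP over input (y axis) of each miRNA gene of the 14q32 region (51 genes, upper panel) and the 19q13 list from MIR512-1 to MIR1283-2 (45 genes, lower panel) by distance from the first gene in kb (x axis), replicate 1 blue and replicate 2 red. On 14q32 the replicates lie on opposite sides of 0 at the 41 genes from MIR379 onward, and on 19q13 all points are below 0.

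The other clusters with most genes were also below 0. The MIR3689 cluster on chromosome 9, with 11 genes, had means of −0.86 and −0.74. The 8 genes around MIR4440 in an intron of HDAC4 had −2.75 and −1.81. The 8-gene cluster from MIR493 to MIR136, which is among the 51 genes of 14q32, had −0.65 and −0.29.

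A mature miRNA made from several loci was in 8 of 59 sets of loci made from loci of different state. Sets that hold the same loci for both arms of a hairpin were counted once, so the 66 mature sequences gave 59 sets. Loci enter a set only where their matched entries gave the identical sequence. Measured loci can therefore be missing, and MIR7-2 is not in the miR-7-5p set. In 2 sets all loci were enriched (miR-196a and miR-9), and in 49 none was. Some of the 49, such as the 3 loci of miR-941, lie in a single pair of blocks. Their loci share a value by construction and could not differ. Several of these sets also share their blocks with each other. Such sets were not counted apart, so the 59 include sets in which no difference was possible. In 7 of the 8 differing sets the loci differed in each replicate taken alone.

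The widest difference was at miR-7-5p, which is abundant in neural and endocrine cells. MIR7-1, in a non-coding exon of HNRNPK at chr9:86584663-86584772 (− strand), had −2.37 in replicate 1 and −2.42 in replicate 2. MIR7-3, in the non-coding gene MIR7-3HG at chr19:4770682-4770791 (+ strand), had 2.44 and 2.36 and was the highest of all miRNA genes. The means of MIR7-1 and MIR7-3 differed by 4.79 on the log2 scale. The SD between replicates was 0.04 at MIR7-1 and 0.05 at MIR7-3 (n = 2). MIR7-2, which the counted set lacks, lies at chr15:89155056-89155165 (+ strand) and was between them, with 0.36 and 0.33. It was not enriched because its −log10 p was 2.88 in replicate 1 and 1.62 in replicate 2.

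miR-199a and miR-199b are abundant in fibroblasts, and their 3 genes lie antisense in introns of the 3 dynamin genes. The 3p strand printed above is identical in all 3. MIR199A1, in DNM2 at chr19:10928102-10928172 (− strand), had −2.70 and −2.52. MIR199B, in DNM1 at chr9:131007000-131007109 (− strand), had −0.84 and −0.63. MIR199A2, in DNM3 at chr1:172113675-172113784 (− strand), was enriched with 0.35 and 0.29. The hairpins themselves had diverged, with an identity of 72.7% between MIR199A2 and MIR199B, each 110 bases long. They are shown with the mature strands that the table gives for each in capitals.
MIR199A2: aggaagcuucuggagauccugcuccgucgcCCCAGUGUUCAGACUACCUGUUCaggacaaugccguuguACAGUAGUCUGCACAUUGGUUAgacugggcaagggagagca
MIR199B: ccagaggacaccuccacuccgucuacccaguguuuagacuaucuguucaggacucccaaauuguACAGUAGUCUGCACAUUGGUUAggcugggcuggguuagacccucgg
MIR199A1: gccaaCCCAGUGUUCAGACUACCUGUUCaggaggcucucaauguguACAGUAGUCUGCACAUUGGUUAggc

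miR-218-5p is made from introns of the paired guidance genes SLIT2 and SLIT3. MIR218-1, in SLIT2 at chr4:20529898-20530007 (+ strand), was enriched with 0.47 in replicate 1 and 0.20 in replicate 2, where its −log10 p of 2.08 was just past the limit of 2. MIR218-2, in SLIT3 at chr5:168195151-168195260 (− strand), had −0.81 and −0.34. The hairpins, each 110 bases long, have an identity of 67.3%, and capitals mark the mature strands.
MIR218-1: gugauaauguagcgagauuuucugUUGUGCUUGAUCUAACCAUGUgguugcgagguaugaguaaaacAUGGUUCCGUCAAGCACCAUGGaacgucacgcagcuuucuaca
MIR218-2: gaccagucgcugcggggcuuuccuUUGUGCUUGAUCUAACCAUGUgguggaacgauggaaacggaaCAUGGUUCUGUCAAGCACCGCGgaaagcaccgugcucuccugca

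The other differing sets were less studied miRNAs. miR-1285-3p had MIR1285-1 (chromosome 7) at −2.01 and −2.34 and MIR1285-2 (chromosome 2, outside coding spans) at 1.00 and 1.42. In the primate miR-548 family, MIR548G was enriched at 1.29 and 1.26 and MIR548X2 at 0.40 and 0.25, while MIR548X, which shares a strand with each, had −0.70 and −0.73. The miR-138-5p loci differed in replicate 1 but not in replicate 2, with MIR138-1 at −0.31 and 0.26 and MIR138-2, the enriched locus, at 0.54 and 0.56.

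**Figure D4:**
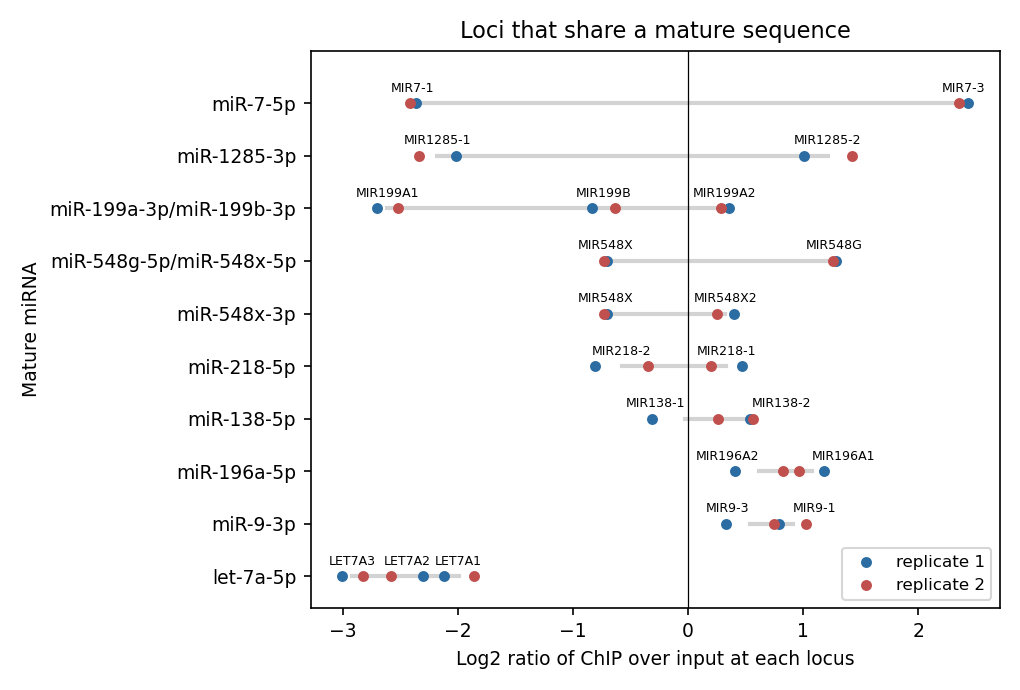
Log2 ratio of ChIP over input (x axis) at each matched locus of 10 mature miRNAs (y axis), replicate 1 blue and replicate 2 red, with each gene named and a grey bar joining the lowest and highest mean. The loci of miR-7-5p are farthest apart, at −2.37 and −2.42 against 2.44 and 2.36, and the 3 let-7a loci all lie at or below −1.86.

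MiRNA genes were also read in 12 lists by known role, holding 107 symbols. Of these, 78 were in the annotation used here and 76 were measured, and 18 (23.7%) were enriched, beside 24.2% of all miRNA genes. All the listed genes have a MIR number under 1000 or a let-7 name. Genes so named were enriched in 13.1% of 475, and in 16.3% by pairs of blocks. The lists are small and their genes often share a block, so the counts describe these genes and no more. With a log2 ratio above 0.5 required, the enriched counts given below fell to 0 for the fibroblast, muscle, and endothelial and liver lists and from 6 to 3 for the epithelial list. The listed genes outside the set, among them MIR17, MIR145, MIR155 and the 4 genes of the miR-29 family, were not analysed here.

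The let-7 family, which restrains growth genes and rises as cells differentiate, was depleted almost throughout. All 10 listed genes were measured, in 7 pairs of blocks; none was enriched and 9 were low in both replicates. MIRLET7A1, MIRLET7F1 and MIRLET7D, at chr9:96938234-96941202 in MIRLET7A1HG, shared −2.12 and −1.86. MIRLET7I, at chr12:62997466-62997550, had −2.15 in both replicates, MIRLET7G in WDR82 −2.26 and −1.88, and MIRLET7A2 in MIR100HG −2.30 and −2.58. MIRLET7C, in MIR99AHG on chromosome 21, stood apart at 0.09 and −0.35.

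Fibroblast miRNAs, listed for their high levels in stromal cells, were mostly below 0. Of 13 measured genes 2 were enriched (MIR214 and MIR199A2, in the same cluster) and 6 were low. MIR143, a smooth muscle and stromal miRNA in the non-coding gene CARMN at chr5:148808481-148808586 (+ strand), had −2.25 and −1.84. MIR100 and MIR125B1, in MIR100HG on chromosome 11, shared −2.30 and −2.58 in a single pair of blocks. MIR31, in MIR31HG at chr9:21512114-21512184 (− strand), had −1.63 and −1.59, and MIR152, in COPZ2, −1.63 and −1.34. MIR125B2, the second locus of miR-125b-5p, differed from MIR125B1 with 0.44 and 0.09, but its −log10 p in replicate 2, 1.98, was just under 2.

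Epithelial miRNAs had 6 of 14 measured genes enriched, in 3 stretches. MIR200A and MIR429, which hold cells in the epithelial state by repressing ZEB1 and ZEB2, had 0.75 and 0.48 (MIR200B was not measured). MIR182, MIR96 and MIR183, sensory and epithelial miRNAs, had 0.55 and 0.64, and MIR375, an islet and epithelial miRNA at chr2:219866362-219866431 (− strand), had 0.47 and 0.65. The second miR-200 cluster was below 0 in both replicates: MIR200C and MIR141, at chr12:7072862-7073354 in MIR200CHG, had −0.54 in replicate 1 and −1.99 in replicate 2. MIR215 and MIR194-1, gut miRNAs antisense in IARS2, were low at −2.45 and −2.28. MIR449A, MIR449B and MIR449C, miRNAs of ciliated cells in CDC20B, had −0.11 and −0.81, and MIR192 had 0.67 and −0.15.

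The HOX miRNAs lie in the HOX gene clusters and share their patterning role, and 3 of 5 were enriched. All 5 lie inside protein-coding spans, where 15.7% of miRNA genes were enriched. MIR196A1, in the HOXB7 span at chr17:46709852-46709921 (− strand), had 1.18 and 0.97. MIR196B at chr7:27209099-27209183 (− strand) had 0.98 and 1.23, and MIR196A2 at chr12:54385522-54385631 (+ strand) 0.40 and 0.83. MIR10B, in HOXD3, had 0.46 in replicate 1 and 0.01 in replicate 2, and MIR615 −0.14 and 0.83. The 5 genes lie on 4 chromosomes in 5 pairs of blocks, and only the ratio of MIR615 in replicate 1 was below 0.

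Neuronal miRNAs had 4 of 11 measured genes enriched, all outside coding spans. MIR9-1, at chr1:156390123-156390230 (+ strand), had 0.79 and 1.03, and MIR9-3, at chr15:89911248-89911337 (+ strand), had 0.33 and 0.75. MIR129-1 had 0.90 and 1.07, and MIR138-2 0.54 and 0.56. MIR129-2, also outside coding spans, had 0.32 and 0.13 and missed the call in replicate 2 with a −log10 p of 1.88. MIR124-2, with −0.71 and −0.73, and MIR138-1, with −0.31 and 0.26, lay outside as well and were not enriched. MIR128-1 in R3HDM1 was low at −1.08 and −1.68, and MIR128-2 in ARPP21 and MIR153-2 in PTPRN2 lay between −1 and 0 in both replicates.

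Muscle miRNAs had 2 of 7 enriched, MIR1-1 and MIR133A2, which share a block and had 0.20 in replicate 1 and 0.92 in replicate 2. Their −log10 p in replicate 1 was 3.57, and with a limit of 5 none of the 7 was enriched. MIR206 and MIR133B had −0.36 and −0.26. The myosin-gene miRNAs differed among themselves: MIR208B in MYH7 had −0.42 and −0.26, MIR208A in MYH6 −0.42 and 0.37, and MIR499A in MYH7B −2.95 and −2.48.

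Pluripotency miRNAs, which are expressed in embryonic stem cells, had none of 7 enriched. MIR302A, MIR302C, MIR302D and MIR367, antisense in LARP7 at chr4:113569030-113569586, were low at −1.84 and −2.21. MIR371A, MIR372 and MIR373, of which the last 2 share the seed AAGUGCU with MIR302A, lay in the block of the neighbouring 19q13 cluster and had −0.47 and −0.40. Of the growth-promoting miR-17 clusters, MIR25, MIR93 and MIR106B in MCM7 were measured and were low at −2.40 and −1.76.

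In the stress-response list none of 4 was enriched in both replicates. MIR34A, a direct p53 target at chr1:9211727-9211836 (− strand), was low at −1.63 and −1.80, whereas its relatives MIR34B and MIR34C, antisense in BTG4, had 0.17 and 0.67 and were called in replicate 2 only. MIR146B had 0.64 and 0.11 and was called in replicate 1 only. MIR122, the main liver miRNA, was enriched with 0.50 and 0.80 at chr18:56118306-56118390 (+ strand), and MIR150, a lymphocyte miRNA, had 0.48 and −1.51, a spread between replicates too wide to place it.

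**Figure D5:**
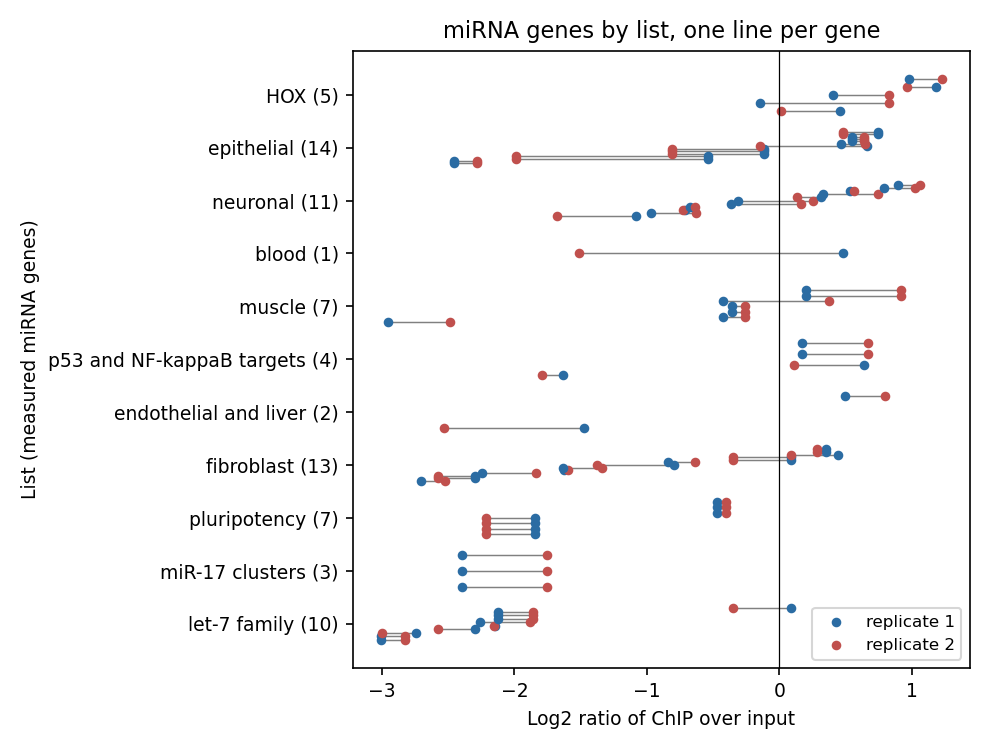
Log2 ratio of ChIP over input (x axis) of each measured miRNA gene in 11 lists by role (y axis, number of measured genes in brackets), with replicate 1 blue and replicate 2 red and a line joining the replicates of a gene. The let-7 genes lie at or below −1.86 apart from MIRLET7C, and 4 of the 5 HOX genes lie above 0 in both replicates.

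Ranked by the mean of both replicates among genes with a MIR symbol, the highest after MIR7-3 was MIR1208 in PVT1, with 2.26 and 1.92. MIR4463, antisense in FILIP1, had 1.65 and 1.77. MIR3142, in MIR3142HG at chr5:159901409-159901490 (+ strand), had 1.59 and 1.77, and MIR378G 1.34 and 1.88. The lowest lay in protein-coding hosts on the same strand: MIR661 in PLEC had −3.24 and −4.05, MIR1225 in PKD1 −3.40 and −3.76, MIR5587 in CAPN15 −3.24 and −3.07, MIR937 in SCRIB −3.53 and −2.77, and MIR637 in DAPK3 −3.14 in both.

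Among genes with a MIR symbol, 5 had the widest differences between replicates, all with ratios of opposite sign. MIR4326 in ARFGAP1 had −2.61 in replicate 1 and 0.59 in replicate 2, MIR1237 in RPS6KA4 −2.52 and 0.66, MIR1915 −2.41 and 0.58, and MIR26B in CTDSP1 −2.16 and 0.35. MIR4733 differed the other way, with 0.80 and −2.22. These 5 genes have no usable direction.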

How the data were processed

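Chromatin of IMR90 cells was precipitated for macroH2A1 in 2 replicates and sequenced with its inputs. The submitters' processing notes name CASAVA 1.7 and hg19. The choice of aligner, duplicate handling, segmentation program and library scaling is not given in the sources used here. The authors deposited a segmentation per ChIP replicate, which gives each segment and block the log2 of ChIP over input, and a −log10 p-value; replicates were not pooled. The files do not name the base of the logarithm: over assayed autosomal bases, 2 to the power of the value averaged 0.988 and 0.976 (replicates 1 and 2) and e to that power 1.11 and 1.09, and the values are read as log2.

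Genes came from GENCODE 44 mapped to GRCh37, whose miRNA models are taken over from release 19. A gene took the value of the block holding most of its bases. Stretches with a ratio and a −log10 p of 0 were treated as no data. The readout was tested on simulated data (2000 genes, 0 misread). The members, lists and thresholds were chosen with earlier results of these data known. Named genes are the members of the lists, the 5 largest clusters, the 5 highest and 5 lowest clusters of 3 or more measured genes, the 5 highest and 5 lowest pairs of blocks and the 5 widest replicate differences among MIR symbols, and mature miRNAs whose loci differ in each replicate. Other genes, MIR7-2 among them, and the groupings by exon, host length, GC content, seed and kind of name were chosen after values were seen. No test was run, since the 2 replicates form a single group. Hairpins were aligned with Biopython 1.88, and tables were made with Python 3.11.15, pandas 2.3.3 and numpy 2.4.6.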

Additional observations from a re-analysis of the deposited data

How the results depend on the processing

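No paired analysis was possible because the inputs enter only within the deposited ratio and every result comes from no test. No gap between groups, outside against inside or single against clustered, changed direction under another setting. Shares and counts have no direction to change. Of 145 values under other settings, 89 moved by less than the spread between replicates or, for counts, stayed within 1.5 times, and 56 moved by more. The enriched share of 24.2% became 20.8% with −log10 p of at least 5, 15.6% with a log2 ratio above 0.5, 17.0% for genes with a MIR symbol, and 28.5% to 30.6% with either replicate left out. The outside-minus-inside gap of 18.4 percentage points became 14.6 with a log2 ratio above 0.5, 9.22 for MIR symbols, 21.2 with each pair of blocks counted once, 15.9 with same-strand hosts only, 19.4 with symbol-bearing hosts only, and 20.0 to 21.2 with either replicate left out. The same gap in medians of the mean log2 ratio, 0.69, became 0.82 for MIR symbols, 0.73 by pairs of blocks, 0.73 with same-strand hosts, 0.75 with symbol-bearing hosts, and 0.70 to 0.71 with either replicate left out. The 18 fully enriched clusters became 11 with a log2 ratio above 0.5, 10 and 36 with links of 3 kb and 50 kb, and 19 to 22 with either replicate left out. Enriched genes of all lists, 18, became 8 with a log2 ratio above 0.5 and 24 to 64 with either replicate left out, where 41 of the 64 are 14q32 genes called in replicate 2. Sets of loci that differ, 8, numbered 6 to 12 in all settings. The files give no depth, the antibody's background without macroH2A1 was not analysed here, and a block far longer than a hairpin cannot resolve the hairpin itself.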

Other observations

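Seed groups with at least 4 measured loci, formed after values were seen, differed in state. The miR-378 group (seed CUGGACU), known from metabolic tissue, had 4 of 7 loci enriched, each in its own pair of blocks, beside 24.2% of all miRNA genes. It was picked among the seed groups for its values, so its count is a description. MIR378F had 1.02 and 0.94 in replicates 1 and 2, MIR422A 0.95 in both, MIR378A in an intron of PPARGC1B 0.58 and 0.86, and MIR378B in ATP2B2 0.55 and 0.87. MIR378I had 0.15 and 0.59, MIR378C −1.08 and −0.66, and MIR378H in FAXDC2 −2.50 and −2.76, so the same seed came from enriched and from low loci.
miR-378a-3p: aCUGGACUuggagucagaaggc
miR-378b: aCUGGACUuggaggcagaa
miR-378c: aCUGGACUuggagucagaagagugg
miR-378f: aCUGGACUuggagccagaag
miR-378h: aCUGGACUuggugucagaugg
miR-378i: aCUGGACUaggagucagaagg
miR-422a: aCUGGACUuagggucagaaggc

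The 4 loci of the seed AUUGCAC, in 4 pairs of blocks on 4 chromosomes, were all low, beside 25.6% of all miRNA genes and 41.9% of those inside coding spans. This group too was named after values were seen. The seed groups GGGCUGG, in 4 pairs of blocks, and UAUACAA, in 2, also had all 4 loci low. MIR25 in MCM7 had −2.40 and −1.76, MIR32 in TMEM245 −2.33 and −1.82, MIR92B −1.99 and −1.54, and MIR367 −1.84 and −2.21. MIR4500, the single locus with the let-7 seed that is no let-7 gene, had −0.57 and −0.71.
miR-25-3p: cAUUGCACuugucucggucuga
miR-32-5p: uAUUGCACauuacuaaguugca
miR-92b-3p: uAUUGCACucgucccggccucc
miR-367-3p: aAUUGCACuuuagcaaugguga

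Members with long-established names differed from clone-named models. Genes with a MIR number under 1000 or a let-7 name were enriched in 13.1% of 475, those with higher MIR numbers in 19.5% of 717, and models with another name in 29.8% of 1559. In replicate 1 alone these shares were 16.8%, 23.7% and 34.3%, and in replicate 2 alone 24.6%, 25.9% and 34.5%, so replicate 2 hardly separated the first 2 groups. By pairs of blocks they were 16.3%, 20.1% and 29.8%. Outside coding spans the shares were 15.0%, 30.0% and 39.9%, with 14.5%, 17.2% and 1.91% low. The outside shares became 34.3%, 37.0% and 45.2% in replicate 2 alone, which calls 41 genes of 14q32, and 23.01%, 31.5% and 40.3% by pairs of blocks. The median GC content around the genes also differed, at 46.9%, 47.5% and 42.5%, and its part was not tested.

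GC content went with the gap between miRNA genes and bins outside coding spans. Below 40% GC, 36.2% of 434 miRNA genes and 30.1% of bins were enriched. Between 50% and 60%, the shares were 29.1% of 213 and 46.3%, and 36.5% of the pairs of blocks. Replicate 1 by itself called 32.4% of those 213 genes against 50.2% of bins, and replicate 2 called 48.8% against 55.0%, a narrower gap. By chromosome, the enriched share ran from 9.42% of 138 genes on chromosome 14, which holds the 14q32 genes, to 35.6% of 146 on chromosome 6, while that of bins ran from 20.8% to 32.7%.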
